A study of Mus musculus with 5 samples.

Results

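The genes described here encode the channels, carriers and exchangers that move chloride, bicarbonate and sodium across the intestinal lining, together with the guanylin hormones and their receptor. The 10 members were Cftr, Slc12a2, Slc26a3, Slc26a6, Slc9a3, Slc4a4, Kcnq1, Guca2a, Guca2b and Gucy2c, taken by symbol, and 10 of 10 were present among the 19198 genes of the deposited table. They were measured in small intestine of 5 mice, 1 RNA library per mouse, made from total RNA after ribosomal RNA depletion. Every mouse carried floxed alleles of the M4 muscarinic acetylcholine receptor (mAChR4 fl/fl), and every mouse was gavaged with RU486, a progesterone receptor ligand, at 10 mg/kg per day on 4 days. The 2 Cre-positive mice also carried Math1Cre*PR, a ligand-activated Cre under Math1 (Atoh1), which is a transcription factor of the secretory lineage. The 3 Cre-negative mice were littermates that lacked this transgene. Floxed alleles and RU486 were thus shared by both groups, and no group had the transgene with unfloxed alleles, so that Cre activity and receptor deletion cannot be told apart. The sources used here do not give age, sex or the stretch of intestine sampled, and Cre driven by Math1 acts in secretory cells, one lineage among the many cell types of such a sample.

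Intestinal fluid secretion is driven by chloride. Slc12a2 (NKCC1) loads chloride into crypt cells across the basolateral membrane, Cftr releases it at the apical membrane, and potassium channels such as Kcnq1 keep the electrical driving force. Bicarbonate enters by Slc4a4 (NBCe1) and leaves by the apical exchangers Slc26a3 (DRA) and Slc26a6 (PAT1), which take up chloride in return, while Slc9a3 (NHE3) is the main apical sodium/hydrogen exchanger of absorptive villus cells. Guanylin (Guca2a) and uroguanylin (Guca2b) are peptide hormones released into the lumen, where they bind guanylate cyclase C (Gucy2c). The cyclic GMP that this receptor makes opens Cftr and restrains Slc9a3.

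None of the members passed the comparison of the genotypes, and the members differed mostly in how far single mice lay from each other. In levels scaled to library size, Guca2a was the only member without overlap between the groups, higher in both Cre-positive mice. Gucy2c and Slc4a4 lay close together in all 5 mice, whereas Guca2b and Slc9a3 spanned 6.6-fold and 5.78-fold from the lowest to the highest mouse. The lowest value of both, and of Slc26a3 and Slc26a6, was in Cre-positive 1, which also had the highest Cftr and Slc12a2. Of the 10 members, 0 were called by edgeR's quasi-likelihood test (Benjamini-Hochberg adjusted p of 0.977 to 0.993), where 0% of the 14352 genes tested were called. At an unadjusted p under 0.05 there were 0 members, against 3.38% of all genes tested, and 0 members had a log2 fold change of 1 or more in size, against 6.22%. The median log2 fold change, Cre-positive over Cre-negative throughout, was -0.11 over the members and -0.04 over all genes tested, and 5 of 10 members had a positive value, against 45.5% of all genes tested. Groups did not overlap for 1 of 10 members, against 18% of all genes tested; 1 member was higher without overlap (7.87% of all genes) and 0 were lower without overlap (10.2%). DESeq2 and limma-voom also called 0 members. In simulated counts for 14352 genes with these group sizes, 3 of 97 genes changed 2-fold were called and 43 of 98 changed 4-fold. Of 13745 unchanged genes, 7 were called. Differences under 2-fold, as those of all 10 members were, would thus mostly not be detected in this design. Genes were simulated independently, so differences between mice that many genes share were not modelled, and detection in the data may be lower.

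**Figure D1:**
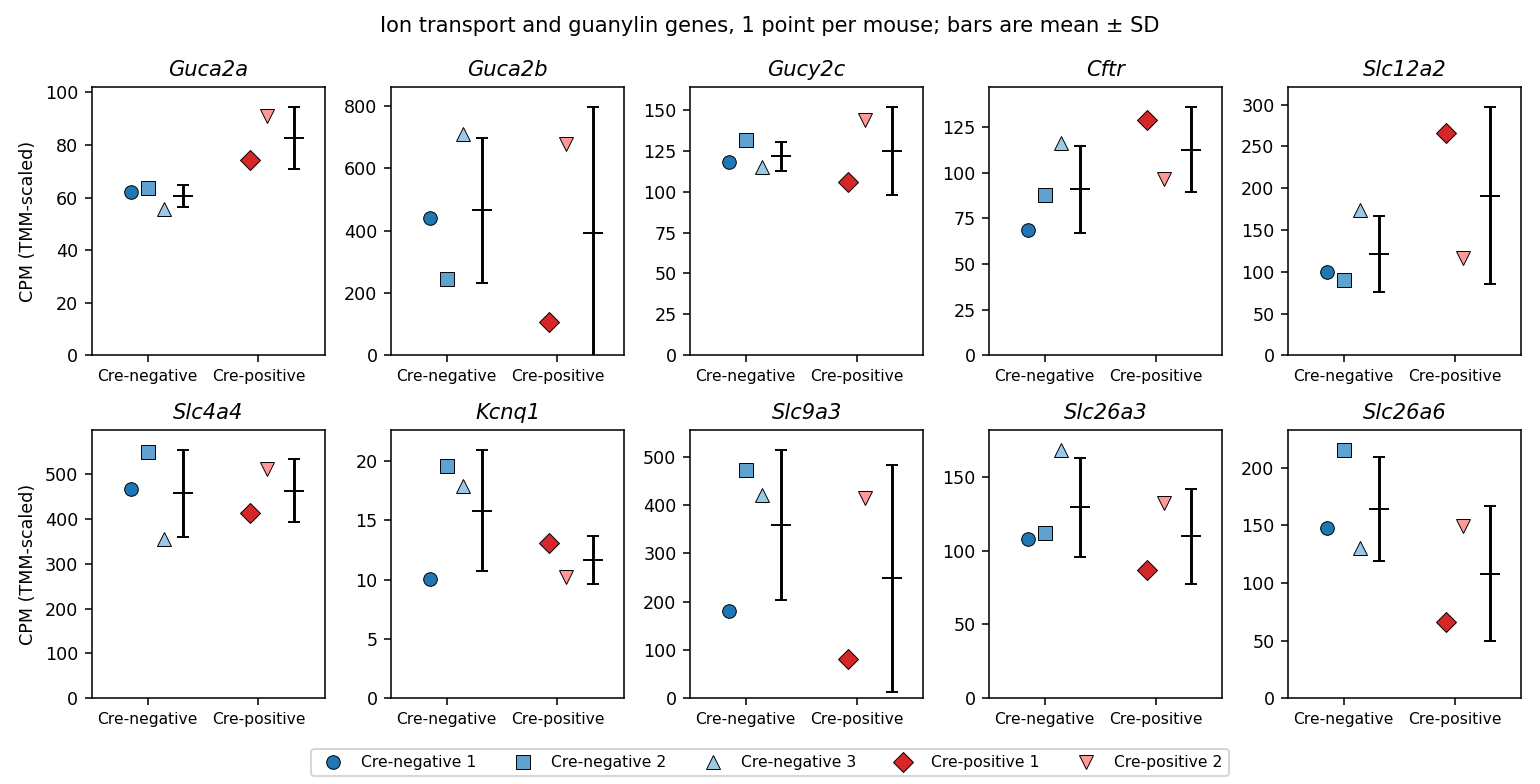
CPM values (counts scaled to library size, with TMM factors) of the 10 members, with 1 point per mouse, 1 panel per gene and a linear axis from 0; horizontal marks and bars give the group mean ± SD (3 Cre-negative, 2 Cre-positive mice), and a bar that would pass below 0 stops at the axis. Guca2a is the panel without overlap between the groups, and Cre-positive 1 is the lowest point for Guca2b, Slc9a3, Slc26a3 and Slc26a6.

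The libraries held 4681113 to 6618213 estimated counts. Levels are given as CPM, counts scaled to library size with TMM factors. Epithelial genes were abundant in every library: the summed CPM of 8 epithelial reference genes, of which 8 were in the table, was 4327 to 4753 in Cre-negative mice and 4709 and 5970 in Cre-positive 1 and 2. The targeted receptor gene, Chrm4, was scarce, at 0.955, 3.69 and 0.649 CPM for Cre-negative 1, 2 and 3 and 2.5 and 0.775 CPM for Cre-positive 1 and 2, and these values do not check the labels, since the floxed part of the gene is not stated and most cells of the sample are outside the reach of this Cre. Of 5 colon markers, Hoxb13, Hoxd12 and Hoxd13 were not among the rows of the table. Genes that mark position along the small intestine differed between mice within each group. Gata4, a transcription factor of the proximal small intestine, stood at 24.6, 19.8 and 47.2 CPM in Cre-negative 1, 2 and 3 and at 0.385 and 39.8 CPM in Cre-positive 1 and 2. Slc10a2, the bile acid carrier of the ileum, stood at 217, 375 and 6.49 CPM in Cre-negative 1, 2 and 3 and at 805 and 45.7 CPM in Cre-positive 1 and 2. Cre-positive 1 thus had the lowest Gata4 and the highest Slc10a2 of the 5 libraries. Over the whole lists, 6 of 6 distal markers were present and their summed CPM was 137 to 796 in Cre-negative mice and 1396 and 333 in Cre-positive 1 and 2. For the proximal list, 5 of 7 were present, with sums of 144.5 to 1012 CPM in Cre-negative mice and 245 and 710 CPM in Cre-positive mice. Single markers did not all follow one order. Slc10a2 alone made up 805 CPM of the distal sum in Cre-positive 1, while the ileal fatty acid binding gene Fabp6 was highest in Cre-negative 2 (61.1 CPM, against 47.3 CPM in Cre-positive 1) and the ileal hormone gene Fgf15 in Cre-negative 1 (49.4 against 14.6 CPM). Among proximal markers, the iron exporter gene Slc40a1 was highest in Cre-positive 1 at 232 CPM, and it made up 96.3 CPM of the sum in Cre-negative 2. Cre-positive 1 stood apart in lymphocyte markers too (10 of 10 present), whose sum was 560 CPM there, 42.3 CPM in Cre-positive 2 and 28.2 to 45.9 CPM in Cre-negative mice. The B cell receptor gene Cd79a was at 0 in the other 4 libraries. Of 6 lymphocyte markers tested, 0 were called, and groups did not overlap for 2, against 18% of all genes tested. These were Cd8a and Gzmb, higher in both Cre-positive mice. Gzmb was at 0.955, 1.48 and 2.60 CPM in Cre-negative 1, 2 and 3 and at 23.3 and 7.28 CPM in Cre-positive 1 and 2. The part of intestinal position and of lymphoid tissue in the member differences was not tested.

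**Figure D2:**
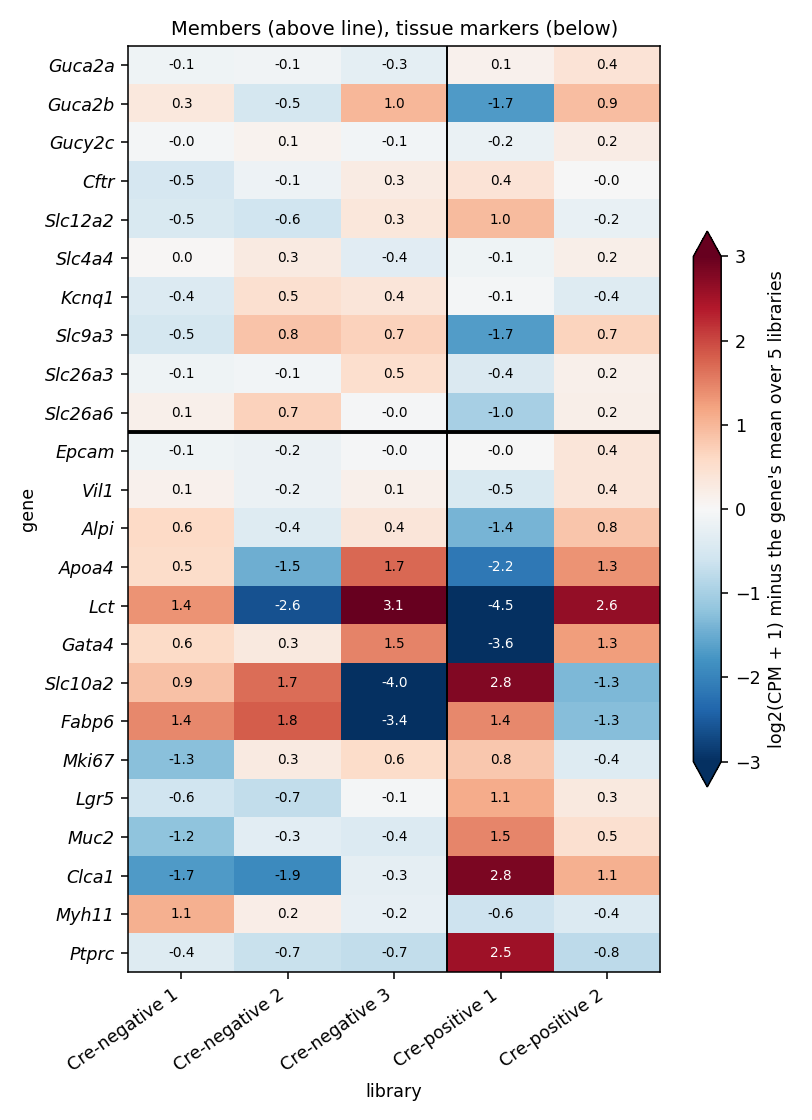
Each cell gives log2(CPM + 1) minus the gene's mean over the 5 libraries, for the 10 members above the thick line and for 14 tissue markers below it; columns are mice, with the vertical line between the groups, and colours saturate at 3 in either direction. Cre-positive 1 carries the lowest Guca2b, Slc9a3, Gata4 and Lct and the highest Slc10a2 and Ptprc, while Gucy2c stays near its mean in all 5 columns.

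Guanylin and uroguanylin are encoded by neighbouring genes on chromosome 4 that lie tail to tail, 17135 bases apart. Guca2a spans 119637704 to 119639471 on the plus strand and Guca2b 119656607 to 119658954 on the minus strand (GRCm38, GENCODE M21), each with 3 exon blocks. The active peptide of both is cut from the end of the prohormone, and the last 48 coding bases before the stop codon are shown because they are the stretch that binds Gucy2c; cysteine codons are in capitals (GENCODE M21 transcripts, 5′ to 3′, gene strand, chr4:119639225-119639272 for Guca2a and chr4:119656795-119656842 for Guca2b).
Guca2a: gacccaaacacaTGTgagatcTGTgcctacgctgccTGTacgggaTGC
Guca2b: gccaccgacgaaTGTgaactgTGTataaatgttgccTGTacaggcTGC
Both ends lie within 1 exon and hold 4 cysteine codons at the same 4 positions, and 31 of 48 bases (64.6%) are the same. The cysteines form the disulfide bridges that hold the peptides in shape for the receptor.

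Guca2a had the smallest spread of the 2 ligand genes and stood higher in both Cre-positive mice. It was at 62.3, 63.7 and 55.7 CPM in Cre-negative 1, 2 and 3 (261, 345 and 343 counts) and at 74.2 and 91.0 CPM in Cre-positive 1 and 2 (386 and 587 counts). All 3 Cre-negative values lay below both Cre-positive values. Means were 60.5 ± 4.28 CPM (SD, n = 3) and 82.6 ± 11.8 CPM (SD, n = 2). The log2 fold change was 0.45 ± 0.21 (SE; 95% interval -0.03 to 0.93), and it did not pass (edgeR unadjusted p = 0.0637, adjusted p = 0.977). In bulk tissue, more cells that make a transcript and more transcript per cell cannot be told apart. Guanylin is made by goblet cells and enterocytes. The summed CPM of goblet cell markers (10 of 10 present, Spdef at 0 in Cre-negative 1) was 609 to 1390 in Cre-negative mice and 5190 and 2304 in Cre-positive 1 and 2. Of 9 goblet markers tested, 0 were called. All 9 had a positive log2 fold change, against 45.5% of all genes tested, and the median was 1.87. Groups did not overlap for 6 of the 9 (Agr2, Clca1, Fcgbp, Muc2, Tff3 and Zg16), against 18% of all genes tested. In Cre-positive 2, Atoh1, Ccl6 and Spink4 lay inside the Cre-negative range. The goblet marker sum was highest in Cre-positive 1 and Guca2a in Cre-positive 2. The part of goblet cell number in the Guca2a level was not tested. Relative to the geometric mean of the epithelial reference genes, Guca2a was 0.163, 0.149 and 0.127 in Cre-negative 1, 2 and 3, while Cre-positive 1 had 0.170 and Cre-positive 2 had 0.171. The groups still did not overlap on that scale, but the log2 fold change was 0.22 ± 0.21 (edgeR adjusted p = 0.768). The share of all genes without overlap was not computed for that scale. The reference itself was higher in both Cre-positive mice. Its geometric mean was 382.6, 426.4 and 437.2 CPM in Cre-negative 1, 2 and 3 and 437.8 and 532.7 CPM in Cre-positive 1 and 2.

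Guca2b varied most of all members, in both groups. It stood at 440, 244.5 and 710 CPM in Cre-negative 1, 2 and 3 (1844, 1325 and 4377 counts) and at 108 and 678 CPM in Cre-positive 1 and 2 (560 and 4378 counts). Cre-positive 1 was below every Cre-negative mouse, and Cre-positive 2 was close to the highest of them. Means were 465 ± 234 CPM (SD, n = 3) and 393 ± 404 CPM (SD, n = 2), with a log2 fold change of -0.24 ± 0.77 (95% interval -2.11 to 1.62; edgeR adjusted p = 0.982). Its direction rested on single mice, since it was 0.58 when Cre-positive 1 was left out, -2.07 when Cre-positive 2 was left out and 0.23 when Cre-negative 3 was left out. Uroguanylin is known as the guanylin peptide of the proximal small intestine. The lactase gene Lct, a brush border enzyme of jejunal villi, was at 258, 15.7 and 878 CPM in Cre-negative 1, 2 and 3 and at 3.46 and 630 CPM in Cre-positive 1 and 2. Lct was picked from the proximal list with its values in view. Gata4 of that list put the mice in the same order as Lct and Guca2b. The rest of the list did not: Slc40a1 was highest in Cre-positive 1 and Cybrd1 in Cre-negative 1. Onecut2 and the list's sum were lowest in Cre-negative 2. The part of intestinal position in the Guca2b level was not tested. The deposited values of Guca2b were not whole in 3 libraries, and its exons overlap no other annotated gene.

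The ratio of the 2 ligands does not depend on library scaling. Guca2a counts divided by Guca2b counts gave 0.142, 0.260 and 0.0784 in Cre-negative 1, 2 and 3. The quotients of Cre-positive 1 and 2 were 0.689 and 0.134. Cre-positive 1 was highest and Cre-positive 2 lay inside the Cre-negative range. The mean log2 ratio was -2.81 ± 0.87 (SD, n = 3) and -1.72 ± 1.67 (SD, n = 2), a difference of 1.09 (exact permutation test over 10 splits, two-sided p = 0.5; adjusted over 4 ratios p = 0.6). The smallest p that 3 against 2 mice can give is 0.1. Without Cre-positive 1 the difference was -0.09.

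Promoters were read for the ligand genes and for Slc26a3, the 3 members with motifs in the 250 bases before the RefSeq start (GRCm38.p6; 7 of 10 members had an entry). They are shown because the 2 neighbouring ligand genes had unlike profiles over the mice. Capitals mark matches, on either strand, to 4 motifs. GTTAAT is one arm of the HNF1 site. A GATA site was searched as AGATAA. For the TATA box the search used TATAAA. Sites of CDX factors were searched as TTTATG. HNF1, GATA and CDX factors are regulators of intestinal epithelium, and the motifs were chosen after the sequences had been seen. The windows are chr4:119637482-119637731 (plus strand) for Guca2a, chr4:119658946-119659195 (minus strand) for Guca2b and chr12:31437969-31438218 (plus strand) for Slc26a3.
Guca2a: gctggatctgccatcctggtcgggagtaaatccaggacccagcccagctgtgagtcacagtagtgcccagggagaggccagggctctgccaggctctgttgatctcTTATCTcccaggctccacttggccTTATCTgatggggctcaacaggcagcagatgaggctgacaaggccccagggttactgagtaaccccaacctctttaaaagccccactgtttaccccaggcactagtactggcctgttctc
Guca2b: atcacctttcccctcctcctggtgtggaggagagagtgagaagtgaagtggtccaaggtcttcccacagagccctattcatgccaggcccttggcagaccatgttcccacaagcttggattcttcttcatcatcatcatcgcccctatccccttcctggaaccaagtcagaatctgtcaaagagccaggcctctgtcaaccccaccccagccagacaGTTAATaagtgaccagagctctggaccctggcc
Slc26a3: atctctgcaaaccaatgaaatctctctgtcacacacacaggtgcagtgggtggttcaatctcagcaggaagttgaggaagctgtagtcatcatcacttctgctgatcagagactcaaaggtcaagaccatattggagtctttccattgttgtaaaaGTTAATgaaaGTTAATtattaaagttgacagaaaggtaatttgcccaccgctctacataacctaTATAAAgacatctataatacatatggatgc
The Guca2a window holds 2 matches to the GATA letters, the Guca2b window 1 match to the HNF1 letters, and the Slc26a3 window 2 HNF1 matches and 1 TATA match. Among 32851 promoter windows of this length, 9.99% hold the GATA letters, 6.43% the HNF1 letters, 12.4% the TATA letters and 10.8% the CDX letters. No match overlapped another. These are matches of letters and not shown binding sites. The windows also differ in base composition: G and C make up 57.2% of the Guca2a window, 54.4% of the Guca2b window and 38.8% of the Slc26a3 window, against 76.4% in the Cftr window and a median of 52.4% over all windows.

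The receptor gene Gucy2c had nearly the same level in all mice. Gucy2c (chromosome 6, 136697284 to 136781765, minus strand, 27 exon blocks) stood at 118, 132 and 115 CPM in Cre-negative 1, 2 and 3 and at 106 and 144 CPM in Cre-positive 1 and 2. The Cre-positive mice were the lowest and the highest of the 5. Means were 122 ± 8.79 CPM (SD, n = 3) and 125 ± 26.9 CPM (SD, n = 2), and the log2 fold change was 0.04 ± 0.22 (95% interval -0.48 to 0.56; edgeR adjusted p = 0.987). Of 7111 genes with a mean of at least 10 CPM, the nearest profile over the 5 libraries was that of AA986860, with a root mean square difference of 0.0186 in centred log2 CPM. Tax1bp3 (0.0332) and Chp1 (0.0369) followed, and Chp1 encodes a calcium-binding cofactor of sodium/hydrogen exchangers. The profiles nearest to Guca2a were those of Clca4b, an enterocyte gene (0.0806; its values were not whole in 5 libraries), Cdc42se2 (0.0876) and Dennd4c (0.0975).

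Cyclic nucleotide signalling genes, a list not limited to those that act behind Gucy2c, were present but none passed the test. Of 34 symbols fixed for this list, 29 were in the table and 27 were tested (the absent symbols Gucy1a3 and Gucy1b3 are older names of Gucy1a1 and Gucy1b1, which were present), and 0 were called higher and 0 lower. Their log2 fold changes were negative for 21 and positive for 6, where 45.5% of all genes tested were positive. The median was -0.40 beside -0.04 over all genes tested. Pde5a, the phosphodiesterase that degrades cyclic GMP, stood at 371, 368 and 354 CPM in Cre-negative 1, 2 and 3 and at 288 and 359 CPM in Cre-positive 1 and 2. Gnas, the stimulatory G protein subunit of the cyclic AMP pathway, averaged 276 ± 52.3 and 307 ± 42.6 CPM. The smallest unadjusted p was that of Ptger4, the prostaglandin E2 receptor EP4. Ptger4 was at 42.5, 36.0 and 34.2 CPM in Cre-negative 1, 2 and 3 and at 81.2 and 62.4 CPM in Cre-positive 1 and 2, without overlap. Its log2 fold change was 0.94 ± 0.23 (edgeR unadjusted p = 0.0041, adjusted p = 0.977). Next came Prkg1, cyclic GMP-dependent protein kinase I of smooth muscle, which was at 11.5, 11.6 and 7.30 CPM in Cre-negative 1, 2 and 3 and at 4.23 and 4.18 CPM in Cre-positive 1 and 2. Prkg1 had a log2 fold change of -1.26 ± 0.36 (edgeR adjusted p = 0.977). Smooth muscle markers (9 of 9 present, none at 0) summed to 701 to 2164 CPM in Cre-negative and 655 and 702 CPM in Cre-positive mice. The part of muscle content in the lower Prkg1 and in the median of the list was not tested. Prkg2, the membrane-bound kinase that phosphorylates Cftr in enterocytes, is given for its role: it stood at 67.3, 50.6 and 151 CPM in Cre-negative 1, 2 and 3 and at 28.5 and 79.6 CPM in Cre-positive 1 and 2. Cre-positive 1 was thus the lowest mouse for Prkg2, as for Guca2b.

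Among the secretory members, Cftr and Slc12a2 had higher means in Cre-positive mice, with overlap between the groups. Cftr (chromosome 6, 18170687 to 18322768, plus strand, 29 exon blocks) stood at 68.7, 87.8 and 116 CPM in Cre-negative 1, 2 and 3 and at 129 and 96.4 CPM in Cre-positive 1 and 2. Cre-positive 2 fell between Cre-negative 2 and 3. The log2 fold change was 0.31 ± 0.28 (95% interval -0.34 to 0.96; edgeR adjusted p = 0.977). The profiles nearest to Cftr were those of Cep295 (root mean square difference 0.0393), Eif2s3x (0.0433) and Sh2d4a (0.0436), and Cep295 encodes a centriole protein. Cftr exons overlap those of the antisense gene Gm15592 over 1.66% of their length, and Gm15592 averaged 8.96 ± 4.89 and 12.0 ± 0.976 CPM.

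Slc12a2 (chromosome 18, 57878678 to 57946821, plus strand, 27 exon blocks) stood at 99.8, 89.9 and 174 CPM in Cre-negative 1, 2 and 3 and at 266 and 116 CPM in Cre-positive 1 and 2. Only Cre-positive 1 lay above the Cre-negative range. Its log2 fold change was 0.66 ± 0.42 (95% interval -0.34 to 1.66; edgeR adjusted p = 0.977), and it became -0.03 with Cre-positive 1 left out and 1.17 with Cre-positive 2 left out. Cftr and Slc12a2 are known as crypt-rich genes of the epithelium. Crypt and cycling markers (9 of 10 present, none at 0) summed to 199, 309 and 594 CPM in Cre-negative 1, 2 and 3 and to 649 and 337 CPM in Cre-positive 1 and 2. That sum, like Slc12a2, was highest in Cre-positive 1 and second highest in Cre-negative 3. The cycling genes Mki67 and Top2a made up 256.5 and 166 CPM of it in Cre-positive 1. Lgr5, Sox9, Mki67, Top2a, Pcna, Ccnb1 and Cdk1 were each highest in Cre-positive 1. Olfm4 was highest in Cre-negative 3 and Smoc2 in Cre-negative 1. The part of crypt content was not tested. Cftr counts were 0.689, 0.977 and 0.668 of Slc12a2 counts in Cre-negative 1, 2 and 3 and 0.486 and 0.828 of them in Cre-positive 1 and 2. The log2 ratio differed by -0.27 between the groups (exact permutation test, two-sided p = 0.6; adjusted over 4 ratios p = 0.6), and by 0.11 without Cre-positive 1.

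Slc4a4 and Kcnq1, which serve secretion from the basolateral side, differed by less than the spread between mice. Slc4a4 (chromosome 5, 88886818 to 89239653, plus strand, 29 exon blocks) stood at 465, 548 and 356 CPM in Cre-negative 1, 2 and 3 and at 414 and 512 CPM in Cre-positive 1 and 2. Both Cre-positive values lay inside the Cre-negative range, with a log2 fold change of 0.02 ± 0.27 (95% interval -0.61 to 0.65; edgeR adjusted p = 0.993). Its deposited values were not whole in 4 libraries. Kcnq1 was the member with the fewest counts: Cre-negative 1, 2 and 3 had 42, 106 and 110 (10.0, 19.6 and 17.9 CPM), and Cre-positive 1 and 2 had 68 and 66 (13.1 and 10.2 CPM). The groups overlapped, because Cre-negative 1 was the lowest of all. Its log2 fold change was -0.45 ± 0.36 (95% interval -1.29 to 0.40; edgeR adjusted p = 0.977). Kcnq1 (chromosome 7, 143106362 to 143427042, plus strand, 22 exon blocks) shares 2.96% of its exon length with Kcnq1ot1, an imprinted antisense RNA transcribed from within it. Kcnq1ot1 averaged 435.5 ± 117 and 508 ± 94.9 CPM. These values are not divided by length, so they cannot be set beside those of Kcnq1. The sources used here do not say whether counting used strand, and reads from the shared stretch cannot be told apart. Kcne3, the subunit that holds Kcnq1 open in intestinal cells, is given for its role and stood at 7.16, 14.8 and 8.44 CPM in Cre-negative 1, 2 and 3 and at 26.2 and 8.99 CPM in Cre-positive 1 and 2.

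The other genes of anion secretion showed 0 calls. Of 22 fixed, 19 were in the table and 17 were tested, with 5 positive and 12 negative log2 fold changes and a median of -0.13. Atp1b1, a beta subunit of the sodium pump, averaged 580 ± 56.55 and 531 ± 84.0 CPM (Cre-negative mean ± SD, then Cre-positive). The smallest unadjusted p values were those of Slc4a10 and Slc4a2. Slc4a2, the basolateral chloride/bicarbonate exchanger AE2, was at 49.9, 49.1 and 41.4 CPM in Cre-negative 1, 2 and 3 and at 30.4 and 36.9 CPM in Cre-positive 1 and 2. The groups did not overlap, and the log2 fold change of Slc4a2 was -0.47 ± 0.23 (edgeR adjusted p = 0.977). Slc4a10, a sodium-dependent bicarbonate carrier, averaged 2.02 ± 0.784 and 4.38 ± 1.03 CPM (log2 fold change 1.10 ± 0.48; adjusted p = 0.977). Of 13 carbonic anhydrases, which supply bicarbonate inside cells or at their surface, 12 were in the table and 8 were tested. Among them 0 were called, with 5 positive and 3 negative values and a median of 0.15. Car13 had the highest mean, and Car4 was at 57.8, 165.5 and 50.5 CPM in Cre-negative 1, 2 and 3 and at 104 and 49.9 CPM in Cre-positive 1 and 2.

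All 3 apical exchangers had lower means in Cre-positive mice, and in each the lowest library was Cre-positive 1. Slc9a3 (chromosome 13, 74121457 to 74169442, plus strand, 18 exon blocks) stood at 181, 472 and 421 CPM in Cre-negative 1, 2 and 3 and at 81.7 and 415 CPM in Cre-positive 1 and 2. Cre-negative 1 was also low, so that a low value occurred in both groups. The log2 fold change was -0.53 ± 0.71 (95% interval -2.22 to 1.17; edgeR adjusted p = 0.977), and it became 0.23 with Cre-positive 1 left out, -2.10 with Cre-positive 2 left out and -0.82 with Cre-negative 1 left out.

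Slc26a6 (chromosome 9, 108853283 to 108913049, plus strand, 19 exon blocks) stood at 147, 215 and 130 CPM in Cre-negative 1, 2 and 3 and at 66.5 and 149.5 CPM in Cre-positive 1 and 2. Cre-positive 2 was inside the Cre-negative range and Cre-positive 1 was below it. The log2 fold change was -0.60 ± 0.39 (95% interval -1.52 to 0.32; edgeR adjusted p = 0.977), with -0.10 if Cre-positive 1 was left out and -1.26 if Cre-positive 2 was. Relative to the epithelial reference genes Slc26a6 was 0.385, 0.505 and 0.297 in Cre-negative 1, 2 and 3, while Cre-positive 1 had 0.152 and Cre-positive 2 had 0.281, without overlap (log2 fold change -0.87 ± 0.34; edgeR unadjusted p = 0.0387, adjusted p = 0.715). On that scale the median of all genes tested was -0.26, and the share of all genes without overlap was not computed. The reference genes' geometric mean was itself higher in both Cre-positive mice, and on CPM the groups overlapped for Slc26a6.

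Slc26a3 (chromosome 12, 31390871 to 31473917, plus strand, 22 exon blocks) stood at 108, 112 and 168 CPM in Cre-negative 1, 2 and 3 and at 87.1 and 133 CPM in Cre-positive 1 and 2. On CPM the values of the 2 groups interleaved. The log2 fold change was -0.23 ± 0.30 (95% interval -0.93 to 0.46; edgeR adjusted p = 0.977). Leaving out Cre-positive 1 gave 0.07, and leaving out Cre-negative 3 gave 0.04. Relative to the epithelial reference genes Slc26a3 was 0.2814, 0.2631 and 0.3845 in Cre-negative 1, 2 and 3. Cre-positive 1 had 0.199 and Cre-positive 2 had 0.249, without overlap. On that scale its log2 fold change was -0.47 ± 0.25 (edgeR adjusted p = 0.715), beside a median of -0.26 over all genes tested. Here too the divisor was higher in both Cre-positive mice, and the share of all genes without overlap was not computed. Slc26a3 counts were 0.731, 0.521 and 1.29 times Slc26a6 counts in Cre-negative 1, 2 and 3 and 1.31 and 0.887 times in Cre-positive 1 and 2. This log2 ratio differed by 0.45 (exact permutation test, two-sided p = 0.4; adjusted over 4 ratios p = 0.6) and kept its sign without each mouse in turn, from 0.15 to 0.80.

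Cftr against Slc9a3 sets apical secretion beside apical absorption within a library. Cftr counts were 0.380, 0.186 and 0.276 of Slc9a3 counts in Cre-negative 1, 2 and 3. In Cre-positive 1 Cftr had 1.58 times the counts of Slc9a3, and in Cre-positive 2 the ratio was 0.232. Cre-positive 1 was the only library in which Cftr counts exceeded those of Slc9a3. The mean log2 ratio was -1.89 ± 0.52 (SD, n = 3) and -0.72 ± 1.96 (SD, n = 2), a difference of 1.17 (exact permutation test, two-sided p = 0.5; adjusted over 4 ratios p = 0.6), and -0.21 without Cre-positive 1. Villus enterocyte markers (10 of 10 present) summed to 13240, 9613 and 17840 CPM in Cre-negative 1, 2 and 3 and to 7672 and 17750 CPM in Cre-positive 1 and 2, with Fabp1 at 0 in Cre-positive 1. The part of villus content and of position along the intestine in these ratios was not tested.

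**Figure D3:**
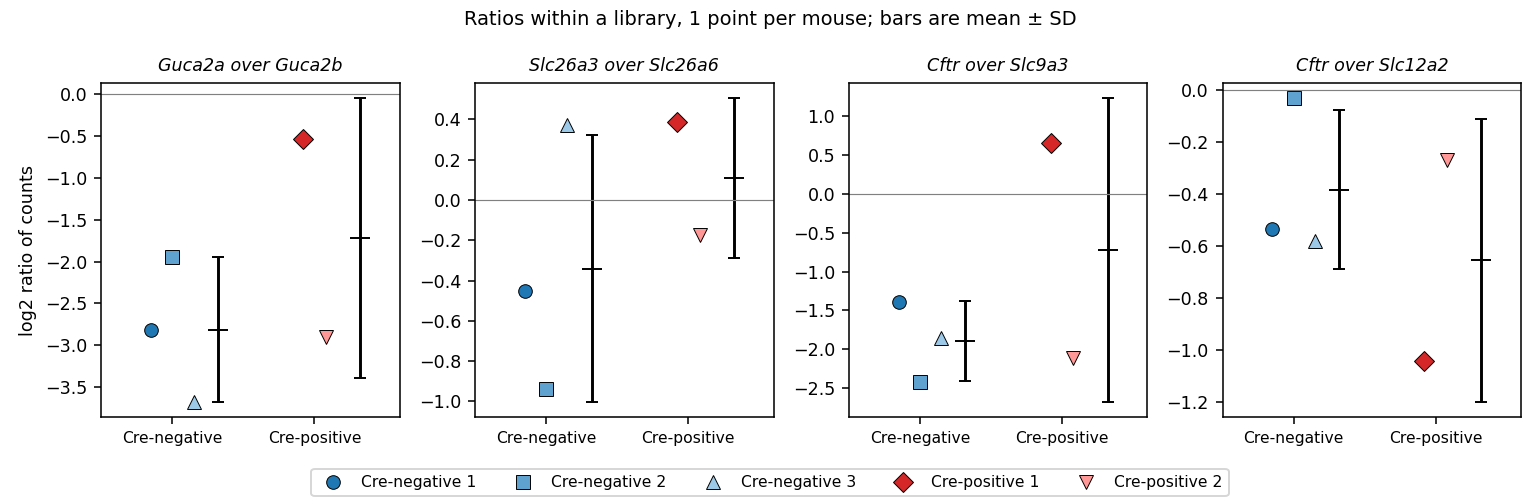
Each panel gives the log2 ratio of the counts of 2 members within a library, with 1 point per mouse and group mean ± SD beside the points (3 Cre-negative, 2 Cre-positive mice). Cre-positive 1 has the highest Guca2a over Guca2b and Cftr over Slc9a3 and the lowest Cftr over Slc12a2, while Cre-positive 2 lies within the Cre-negative range in all 4 panels.

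Other genes of sodium, chloride and water absorption also showed 0 calls. Of 24 symbols fixed, 17 were in the table and 16 were tested. The absent symbols Nherf1, Nherf2 and Nherf4 are newer names of Slc9a3r1, Slc9a3r2 and Pdzd3, which were present. The genes tested had 6 positive and 10 negative log2 fold changes and a median of -0.14. The highest levels were those of Slc26a2, a sulfate and chloride exchanger, at 626 ± 142 and 688.5 ± 70.9 CPM, and of Slc9a3r1 (NHERF1), a scaffold that anchors Slc9a3 and Cftr at the brush border, at 302 ± 70.1 and 318 ± 106 CPM (Cre-negative, then Cre-positive). Pdzk1, a related scaffold given for its role, was at 74.2, 29.7 and 53.7 CPM in Cre-negative 1, 2 and 3 and at 9.62 and 74.4 CPM in Cre-positive 1 and 2, lowest in Cre-positive 1 like Slc9a3. The smallest unadjusted p values were those of Slc26a1, a sulfate carrier (log2 fold change -0.68 ± 0.48), and Sgk3, a kinase (-0.69 ± 0.58), both with edgeR adjusted p = 0.977.

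Transcription factors that regulate epithelial genes of this kind gave no call. Of 12 fixed, 11 were tested and 0 passed, with 8 positive and 3 negative log2 fold changes and a median of 0.06. Hnf4a and Hnf4g, nuclear receptors of enterocytes, had the highest means, at 494 ± 109 and 530 ± 65.3 CPM for Hnf4a and 464 ± 143 and 473 ± 191 CPM for Hnf4g. Foxa1 had the smallest unadjusted p and stood at 17.7, 21.6 and 18.2 CPM in Cre-negative 1, 2 and 3 and at 66.3 and 23.1 CPM in Cre-positive 1 and 2. Its log2 fold change was 1.22 ± 0.42 (edgeR adjusted p = 0.977). Most of its difference lay in Cre-positive 1. Foxa3 followed, at 1.10 ± 0.693 and 3.06 ± 1.92 CPM.

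Per kilobase of annotated exons, the hormone genes were the most abundant members and the potassium channel the least. Guca2b ranged from 124 to 816 CPM per kilobase over the 5 mice and Guca2a from 93.7 to 153, and in Cre-positive 1 they were level at 124 and 125. Slc9a3 (14.9 to 85.8), Slc4a4 (32.9 to 50.7) and Gucy2c (26.7 to 36.3) came next by mean, and Slc9a3 and Slc4a4 did not differ beyond their spread. Slc26a6 ranged from 12.3 to 39.8 CPM per kilobase and Slc26a3 from 13.7 to 26.4, again with overlap. Slc12a2 (8.23 to 24.4) and Cftr (8.85 to 16.6) overlapped throughout, and Kcnq1 at 2.45 to 4.78 lay below every other member in every mouse. The receptor Gucy2c had the smallest span of all members, 1.36-fold between the lowest and the highest mouse, followed by Slc4a4 at 1.54-fold and Guca2a at 1.63-fold. Exon length counts every annotated exon once, so genes with unused exons are understated on this scale.

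**Figure D4:**
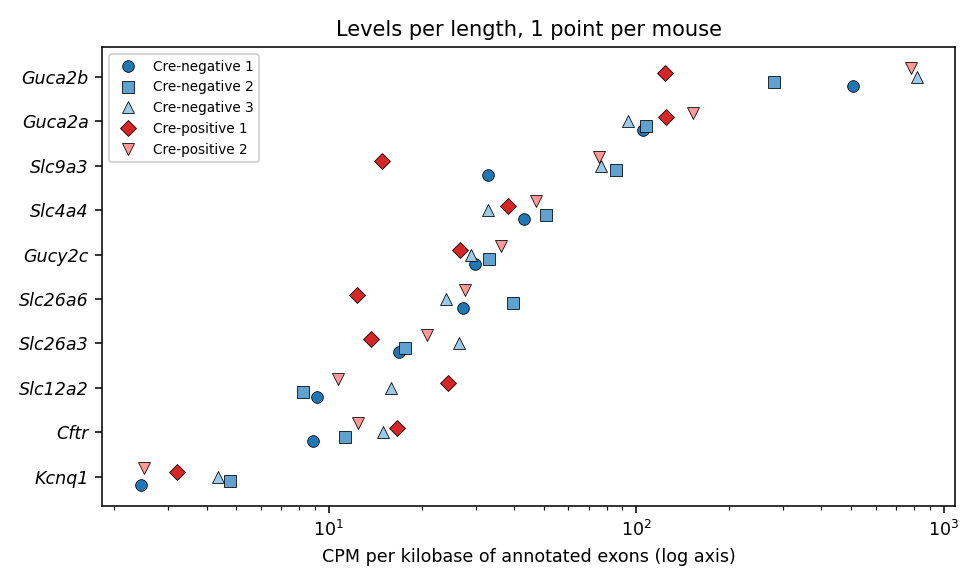
Levels of the 10 members per kilobase of annotated exons (CPM per kilobase, log axis), ordered by their mean over the 5 mice, with 1 point per mouse. Guca2b runs from 124 to 816 and Gucy2c from 26.7 to 36.3, and Kcnq1 sits lowest in all 5 mice.

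**Figure D5:**
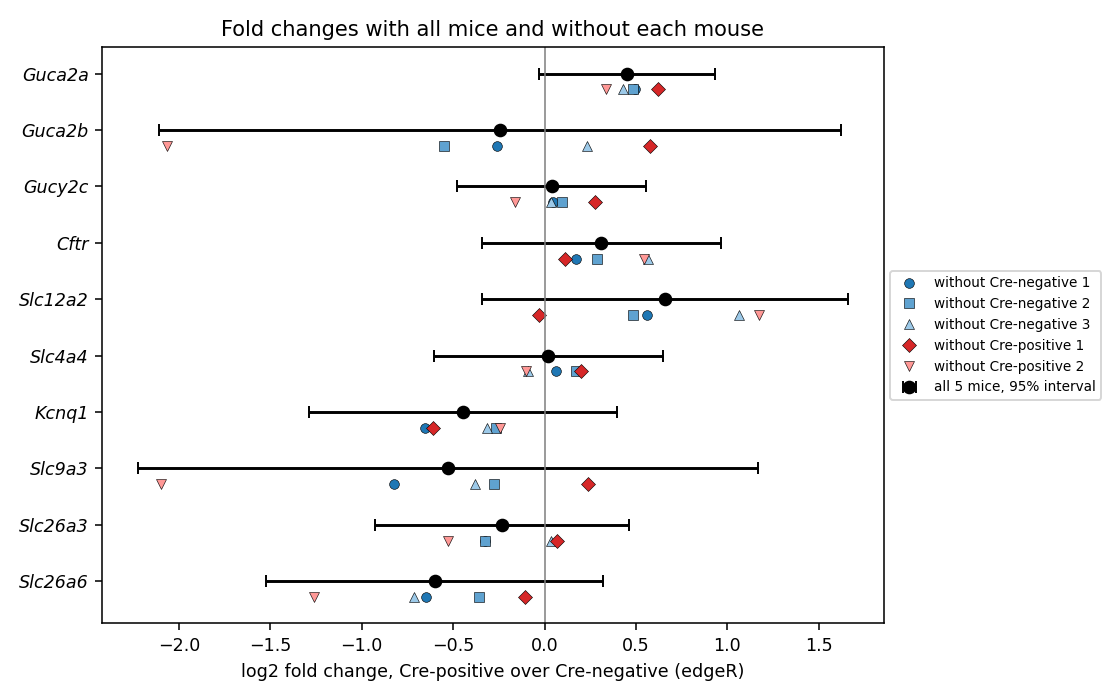
Log2 fold changes of Cre-positive over Cre-negative from edgeR with all 5 mice (black points, bars are 95% intervals) and without each mouse in turn (coloured points below each black point). Every interval includes 0, and the points that omit Cre-positive 1 and Cre-positive 2 lie farthest apart for Guca2b and Slc9a3.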

How the data were processed

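Total RNA of small intestine from 5 mice was depleted of ribosomal RNA and sequenced (per the labels' protocols). The authors deposited a single table of estimated counts with a column for each mouse. Partek and mm10 are named in the submitters' processing notes; for version, aligner, annotation, strand and counting rule: not given in the sources used here. By library, 19.6% to 21.7% of values differed from the nearest whole number by over 0.005, and all were rounded. Groups follow the genotype label, replicate numbers follow record order and pair no mice, and 0 columns were left unused. Each mouse has its own number in the labels.

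Tests used edgeR 4.0.16 in R 4.3.3: TMM scaling, filterByExpr with a minimum count of 10 (14352 genes kept, 4846 removed), robust quasi-likelihood fitting on genotype, and Benjamini-Hochberg adjustment over all genes with a threshold of 0.05. All 10 members passed the filter. The biological coefficient of variation came to 33.1%, and the residual degrees of freedom to 3. SEs are the log2 fold change over the root of F. The 4 ratios were tested by exact permutation. Alternatives used DESeq2 1.42.0, limma 3.58.1 (voom), other scalings and filters, and leaving out each mouse. The edgeR script was tested on simulated data.

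Members, lists and tests were chosen with earlier results of these data known. Besides the members, the text names from each pathway list the 2 genes with the highest mean CPM and the 2 with the smallest p, and the 3 nearest profiles of Gucy2c, Cftr and Guca2a over genes with a mean of at least 10 CPM (log2 CPM with a prior count of 2). Not every gene so taken is described. Marker genes named singly, and genes described as given for their role, were picked with their values in view. Coordinates, exons and coding ends came from GENCODE M21 (GRCm38, which mm10 denotes), promoters from RefSeq (GRCm38.p6).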

Additional observations from a re-analysis of the deposited data

How the results depend on the processing

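No paired analysis was possible because the labels give no pairing of mice between the 2 groups. The number of members called was 0 under every scaling, filter, threshold and tool tried and without each mouse. Over all genes, edgeR called 0 genes (485 at an unadjusted p under 0.05), limma-voom 0 (335) and DESeq2 17 higher and 7 lower (637); the cause of the difference was not tested. Without each mouse in turn, edgeR called 0 to 58 genes higher and 0 lower, and the 58 came without Cre-positive 2, where the lone Cre-positive mouse is assumed to vary like the others. Scaling by the epithelial reference genes moved the median log2 fold change of all genes from -0.04 to -0.26 and turned Slc4a4 to -0.21 and Gucy2c to -0.20, values above that median. Directions of Cftr, Slc26a6, Kcnq1 and Guca2a held under all alternatives, with ranges of 0.11 to 0.57, -1.26 to -0.10, -0.66 to -0.24 and 0.22 to 0.62. Without single mice, log2 fold changes ran from -0.0301 to 1.17 for Slc12a2, -0.53 to 0.0652 for Slc26a3, -2.10 to 0.23 for Slc9a3, -0.10 to 0.20 for Slc4a4, -2.07 to 0.58 for Guca2b and -0.16 to 0.27 for Gucy2c. The log2 ratio differences ran from -0.0869 to 2.28 for Guca2a over Guca2b, -0.21 to 2.55 for Cftr over Slc9a3, -0.66 to 0.11 for Cftr over Slc12a2 and 0.15 to 0.80 for Slc26a3 over Slc26a6. Adding 5 counts or leaving counts unrounded moved no ratio's sign. With 3 and 2 mice the exact test cannot pass 0.05, so these p-values say nothing about stability.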
